A study of Mus musculus with 3 samples.

Results

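The genes described here encode 10 antibacterial proteins of the intestinal epithelium and of the cells beside it: Lypd8, Pglyrp1, Pglyrp2, Nos2, Duox2, Duoxa2, Lcn2, S100a8, S100a9 and Pigr. They were selected by gene symbol as a set of known function, with earlier ratios of the same comparison in view, and all 10 were measured, among 20738 genes in all. Their own values are therefore a description and carry no test. Each of 3 two-colour arrays held total RNA of whole proximal jejunum from a Sox4 knockout mouse, labelled with Cy5, against total RNA of wild-type whole proximal jejunum, labelled with Cy3. The knockout was driven by vilCre, a Cre recombinase under the villin promoter, which is active in the intestinal epithelium, so the muscle, blood vessels, nerves and immune cells of the wall keep their Sox4 gene. The labels used here give neither the age nor the sex of the mice, nor whether wild-type animals were pooled. Every value below is read as a log2 ratio of knockout over wild type, since neither the base nor the direction is stated, and the opposite direction would turn every sign. An SD is taken over n = 3 arrays, and a gene passed the test when its adjusted p from limma over all 20738 genes was under 0.05.

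The gut epithelium keeps bacteria away by several means. Some proteins act on the bacteria themselves, by binding flagella or cell wall peptidoglycan. An oxidase of the apical surface makes hydrogen peroxide, and a synthase makes nitric oxide. Other proteins bind iron carriers, zinc and manganese that bacteria need, and a receptor carries IgA from the tissue into the lumen. Several of these genes are known to be switched on by bacterial products and by cytokines such as IL-22, IL-17 and interferon gamma.

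The starts of the genes that the description turns on are shown as RefSeq promoter windows of GRCm38.p6, from 250 bases before to 50 bases after the annotated start, 5' to 3' on the strand of the gene. Lypd8 and Pglyrp1 were the members above 1 on every array, and the pairs Duox2 with Duoxa2 and S100a8 with S100a9 are close in the genome, and their ratios followed each other from array to array. Capitals mark matches on either strand to GGGANTNTC (core of NF-kB sites), TTCNNNGAA (a STAT motif), TATAAA (the TATA box) and AACAAAG (a Sox motif), where N is any base.
Lypd8 chr11:58378782-58379081 (plus strand): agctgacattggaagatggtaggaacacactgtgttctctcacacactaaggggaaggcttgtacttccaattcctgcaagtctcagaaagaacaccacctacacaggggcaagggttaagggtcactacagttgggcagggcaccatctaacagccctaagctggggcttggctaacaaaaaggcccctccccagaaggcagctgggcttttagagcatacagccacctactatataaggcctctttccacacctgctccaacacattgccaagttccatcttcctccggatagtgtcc
Pglyrp1 chr7:18884440-18884739 (plus strand): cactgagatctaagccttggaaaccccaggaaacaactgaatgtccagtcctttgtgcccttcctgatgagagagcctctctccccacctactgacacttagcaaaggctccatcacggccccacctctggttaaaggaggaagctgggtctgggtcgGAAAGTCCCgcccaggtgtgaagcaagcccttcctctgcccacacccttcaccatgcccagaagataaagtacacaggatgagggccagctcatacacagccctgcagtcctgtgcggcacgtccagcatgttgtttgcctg
Duox2 chr2:122298178-122298477 (minus strand): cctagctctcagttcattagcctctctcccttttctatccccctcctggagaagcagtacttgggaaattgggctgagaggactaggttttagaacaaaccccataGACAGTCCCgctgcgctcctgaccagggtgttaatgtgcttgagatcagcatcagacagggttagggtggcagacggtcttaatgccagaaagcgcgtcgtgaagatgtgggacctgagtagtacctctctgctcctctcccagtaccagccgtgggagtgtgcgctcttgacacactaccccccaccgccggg
Duoxa2 chr2:122298650-122298949 (plus strand): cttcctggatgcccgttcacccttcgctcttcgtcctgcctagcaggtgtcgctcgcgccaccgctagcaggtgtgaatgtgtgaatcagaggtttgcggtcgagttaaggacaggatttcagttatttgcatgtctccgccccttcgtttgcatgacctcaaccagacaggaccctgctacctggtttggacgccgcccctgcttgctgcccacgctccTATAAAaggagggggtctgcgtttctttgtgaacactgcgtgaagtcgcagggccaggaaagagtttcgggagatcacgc
S100a8 chr3:90668821-90669120 (plus strand): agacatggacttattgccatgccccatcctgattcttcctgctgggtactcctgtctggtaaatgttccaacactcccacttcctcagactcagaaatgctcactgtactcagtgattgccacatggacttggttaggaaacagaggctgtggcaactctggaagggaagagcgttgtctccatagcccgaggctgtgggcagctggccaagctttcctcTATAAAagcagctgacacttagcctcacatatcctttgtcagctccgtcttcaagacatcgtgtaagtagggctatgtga
S100a9 chr3:90695672-90695971 (minus strand): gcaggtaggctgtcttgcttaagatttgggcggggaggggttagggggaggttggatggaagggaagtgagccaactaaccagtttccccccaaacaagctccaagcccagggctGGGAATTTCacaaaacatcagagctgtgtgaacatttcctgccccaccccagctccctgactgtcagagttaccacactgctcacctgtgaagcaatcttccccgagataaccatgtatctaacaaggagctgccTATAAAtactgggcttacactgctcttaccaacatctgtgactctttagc

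Windows were found for 9 of the 10 genes, with no entry for Nos2 and 2 windows for Lypd8. TATAAA began 30 bases before the annotated start of Duoxa2 and of S100a8, and at the first base of the S100a9 transcript as annotated. It occurs in 13.6% of the 32851 windows in the table. GGGANTNTC matched once each in the windows of Pglyrp1, Duox2 and S100a9, against 3.49% of all windows. TTCNNNGAA matched once in the Pigr window and in no other member's, against 8.3% of all windows, and AACAAAG matched in none of the members' windows, against 5.85%. A match describes letters only and says nothing about binding.

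The ratios of the 10 genes differed in size and in evenness. Of the 10, 5 were above 0 on every array (Lypd8, Pglyrp1, Pglyrp2, Nos2 and Pigr), none was below 0 on every array, and 5 had both signs (Duox2, Duoxa2, Lcn2, S100a8 and S100a9). Of all genes, 23.2% were above 0 on every array and 27.3% below. The members' median was 0.39, with -0.03 for all genes. Lypd8 and Pglyrp1 passed the test and the other 8 did not, where 0.328% of all genes passed. With any 1 array left out neither passed, and nothing is read from this count because the members were chosen on the same comparison. The spread between arrays was wide for many of them: 6 of the 10 had an SD above 0.5, as did 10.4% of all genes, and the members' median SD was 0.58, with 0.22 for all genes.

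**Figure D1:**
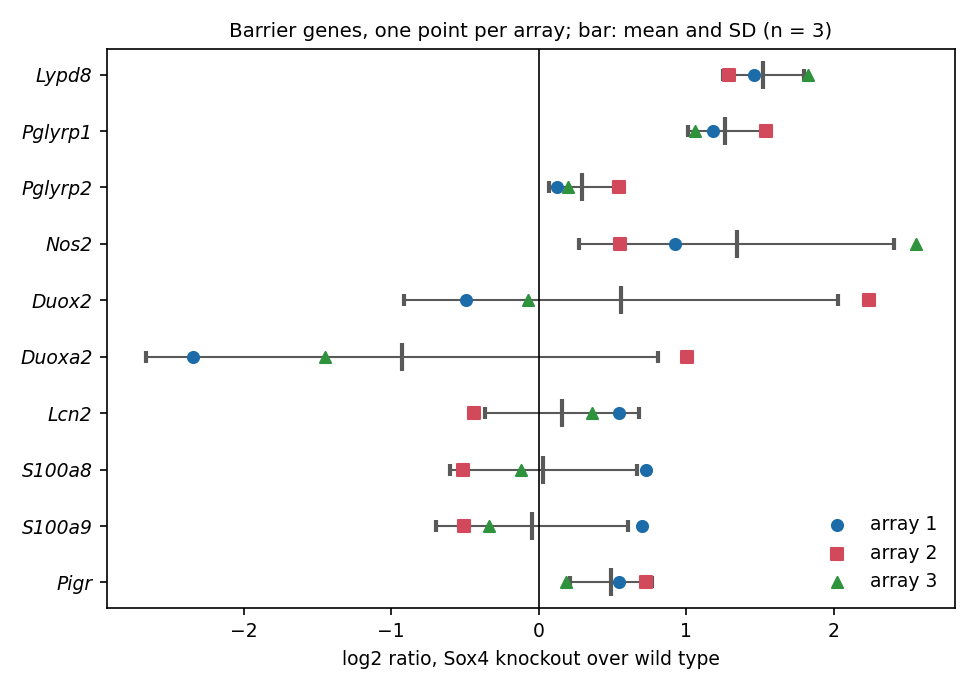
Log2 ratios of knockout over wild type (x axis) for the 10 barrier genes (rows), with a symbol for each array, a tick at the mean and a bar for the SD over 3 arrays. Lypd8 and Pglyrp1 lie above 1 on every array, Duox2 and Duoxa2 are above 0 on array 2 alone, and S100a8 and S100a9 are above 0 on array 1 alone.

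Checks of the labels bear on all of these values. Sox4 itself had -0.66, 0.18 and -0.46 on arrays 1, 2 and 3, so its 3 features averaged above 0 in the library labelled knockout on array 2. On that array feature 32792 had 1.23, feature 35668 0.03 and feature 53932 -0.72. Their means over arrays were 0.42, -0.41 and -0.95, so the features disagreed in sign. Where these features lie in the gene was not analysed here, and they check the genotype weakly. The Y-linked gene Eif2s3y had -7.44, -6.99 and -7.40, and Xist, the RNA of the inactive X chromosome, had 1.77, 1.85 and 1.51. Both differ in the direction of female over male RNA on every array, so sex and genotype cannot be told apart in any result. All arrays carried the dyes the same way round, and a gene's dye effect cannot be told apart from its genotype effect. Of 14 epithelial marker genes none passed the test (4 had an unadjusted p under 0.05, all higher), and their medians were 0.12, 0.08 and 0.15 on the 3 arrays. The keratin gene Krt19 had 0.83 ± 0.21, the microvillus gene Vil1, whose promoter drives the Cre, 0.48 ± 0.14 and the claudin gene Cldn3 0.35 ± 0.19, with adjusted p-values of 0.064, 0.0931 and 0.163 (limma). The markers did not all lie on 1 side of 0, with 9 means above it and 5 below. Of the 14, 6 lay above 0 on all 3 arrays and 3 lay below 0 on all 3. The 3 below were Epcam, Tjp1 and Cldn7, with means of -0.27, -0.29 and -0.22. In whole tissue, more RNA per cell and more cells of a type cannot be told apart.

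Among the proteins that act on bacteria directly, Lypd8 and Pglyrp1 stood highest. Lypd8 is a heavily glycosylated protein of the Ly6 and uPAR family, shed from the apical surface of enterocytes, that binds flagellated bacteria and hinders their movement. It had log2 ratios of 1.46, 1.29 and 1.82 on arrays 1, 2 and 3, which are 2.75-fold, 2.44-fold and 3.54-fold of wild type. The mean was 1.52 ± 0.27 (2.87-fold), above that of 99.9% of all genes. Its value rests on 1 feature, listed on the platform under an older name of the gene, and the gene lies at chr11:58379032-58390541.

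Pglyrp1 is a secreted peptidoglycan recognition protein, stored in neutrophil granules and also made by epithelia, that binds the bacterial cell wall and kills bacteria. Its ratios were 1.18, 1.54 and 1.06 on arrays 1, 2 and 3, with a mean of 1.26 ± 0.25 (2.40-fold) from 1 feature. All 3 arrays thus lay well above 0, and array 2 was the highest for Pglyrp1 and the lowest for Lypd8. Pglyrp2, an amidase that cuts peptidoglycan and so removes its power to stimulate immune cells, had 0.13, 0.54 and 0.20, with a mean of 0.29 ± 0.22. Within each array Pglyrp1 lay above Pglyrp2 by between 0.86 and 1.06, and both were highest on array 2.

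Relatives of these genes had both signs. Pglyrp3 had -0.53, -0.43 and -0.18 and Pglyrp4 had -0.40, -0.05 and -0.20, so both bactericidal relatives of Pglyrp1 were below 0 on every array without passing the test (adjusted p = 0.141 and 0.314, limma). In the Ly6 and uPAR family, 24 of the 25 listed genes were measured and none passed in either direction, with 11 means above 0 and 13 below. An unadjusted p under 0.05 was found for 4 higher and 4 lower genes, against 26.3% of all genes. Lypd3, a protein of stratified epithelia, had -1.05, -0.74 and -1.62 (mean -1.14 ± 0.45, adjusted p = 0.0659, limma). Lypd1 had -0.87 ± 0.60, and Lypd2, Lypd4, Lypd5, Lypd6 and Lypd6b had means between -0.09 and 0.40. The interferon-inducible gene Ly6e had 0.95 ± 0.50 and Ly6k -1.14 ± 0.57, neither past the test. The family's median was -0.01, with -0.10, 0.10 and -0.02 on the 3 arrays.

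Sensors of bacterial products were also measured, 24 of the 26 listed, and none passed in either direction. An unadjusted p under 0.05 was found for 8 higher and 5 lower genes, where 26.3% of all genes had one. Tlr1, the partner of Tlr2 in sensing lipoproteins, had 0.92, 0.89 and 1.02 (mean 0.95 ± 0.07, adjusted p = 0.0541, limma), Nlrp6, an inflammasome sensor of the gut epithelium, had 0.73 ± 0.11, and Tlr9, the sensor of bacterial DNA, 0.50 ± 0.17. The list's median was 0.15, with -0.03 for all genes.

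Nos2 is the inducible nitric oxide synthase. It had 0.92 and 0.55 on arrays 1 and 2 and 2.56 on array 3, which is 1.89-fold, 1.46-fold and 5.89-fold of wild type. The mean of 1.34 ± 1.07 (2.54-fold) thus lay above 99.8% of genes while its SD also exceeded that of 99.1% of genes. Both Nos2 features gave this order, with 0.87, 0.48 and 2.53 for feature 44285 and 0.97, 0.62 and 2.58 for feature 61515. The height on array 3 is therefore found in both features, and without that array the mean was 0.74.

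Other genes of nitric oxide synthesis and arginine use had values of at most 0.65 on array 3. Nos1, the neuronal synthase, had 0.52, 0.27 and 0.10, and Nos3, the endothelial one, had -0.69, 0.51 and -0.04. Gch1, which makes the first step of the cofactor tetrahydrobiopterin, had -0.56, -0.73 and -0.86 (mean -0.72 ± 0.15, adjusted p = 0.0659, limma). Ass1 and Asl, which remake the substrate arginine from citrulline, had 0.61 ± 0.14 and 0.42 ± 0.15. All 14 listed genes were measured, none passed in either direction, and their median was 0.09. Of them, 2 higher and 3 lower had an unadjusted p under 0.05, against 26.3% of all genes. By Euclidean distance over the 3 arrays, the genes with values nearest to those of Nos2 were Gml (0.83, 0.45 and 2.13), Vmn2r1 and Gml2. Those nearest to Lypd8 were Btnl4 (1.26, 1.34 and 1.37), A630076J17Rik and H2-T3.

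Duox2 is the dual oxidase that releases hydrogen peroxide at the apical surface, and Duoxa2 is the maturation factor that takes it out of the endoplasmic reticulum to that surface. The genes lie head to head on chromosome 2, Duox2 at chr2:122279246-122298740 and Duoxa2 at chr2:122298900-122302885, with 159 bases between their ends. The Duoxa2 window printed above spans this gap, and the outer end of Duox2 is its base 91, while the Duox2 window belongs to a start further inside that gene. Duox2 had -0.49, 2.24 and -0.08 on arrays 1, 2 and 3, and Duoxa2 had -2.34, 1.01 and -1.45. Both were highest on array 2, next on array 3 and lowest on array 1.

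The level of the pair differed from array to array while the difference within the pair did not vary as much. Duox2 minus Duoxa2 was 1.85, 1.23 and 1.38 on the 3 arrays (1.49 ± 0.33), against an SD over arrays of 1.47 for Duox2 and 1.74 for Duoxa2 alone. Their means of 0.56 and -0.93 therefore have opposite signs although the genes kept the same order of arrays. On array 2 Duox2 was 4.71-fold and Duoxa2 2.01-fold of wild type. Array 2 is also the one with a Sox4 mean above 0, which rests on Sox4 feature 32792. What part that array's RNA has in these values was not tested. Without array 2 the mean of Duox2 was -0.28 and that of Duoxa2 -1.90. Without array 1 they were 1.08 and -0.22.

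The 2 Duoxa2 features followed the same order of arrays at different levels. Feature 43662 gave -2.09, 1.26 and -1.14 and feature 43714 gave -2.60, 0.75 and -1.76, so the first lay higher by 0.51 to 0.62 on each array. Duox2 rests on 1 feature, named by its platform symbol because its accession was not in the RefSeq table. That table also gives Duox2 as a synonym of Duox1, so the identity of this feature, and with it every Duox2 value and the pairing with Duoxa2, rests on the platform's symbol alone.

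**Figure D2:**
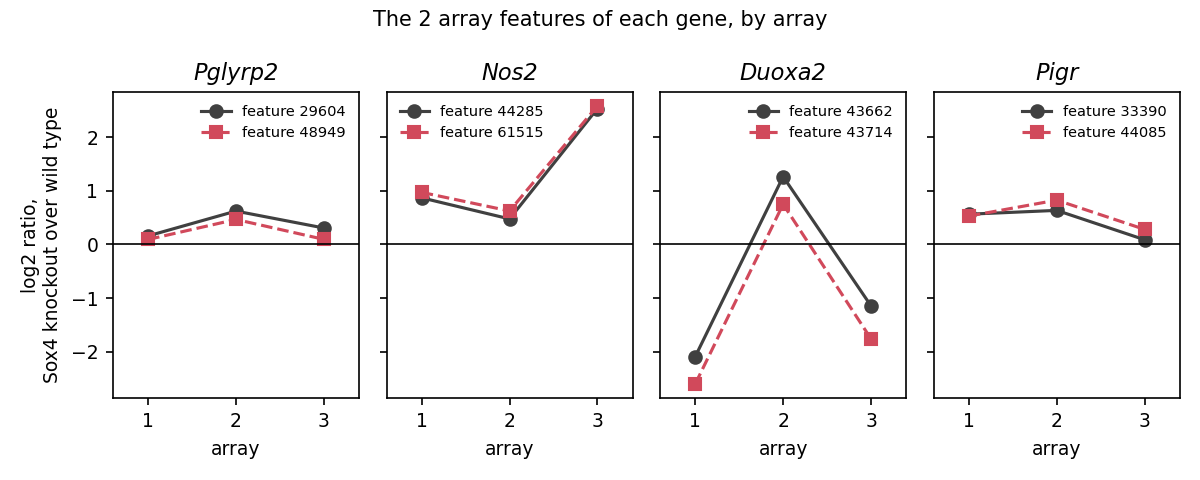
Log2 ratios of knockout over wild type (y axis) on arrays 1 to 3 (x axis) for the genes with 2 features, with a line for each feature. Both features of Nos2 are highest on array 3 and both of Duoxa2 are above 0 on array 2 alone, while the features of Pglyrp2 and Pigr stay between 0 and 1.

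The neighbouring pair Duox1 and Duoxa1, a second oxidase and its factor, overlap at their ends at chr2:122313010-122347972 and chr2:122303540-122313763. Duox1 had 0.23, 0.60 and 0.31 over 10 features, whose means ran from 0.31 to 0.45. Duoxa1 had -0.84, 0.17 and -0.95, and its features differed: feature 17515 had -1.44, 0.32 and -1.65, and feature 19809 had -0.25, 0.02 and -0.24. Array 2 was the highest for Duox1 and Duoxa1 as it was for Duox2 and Duoxa2, with a smaller range of 0.38 for Duox1 and 1.12 for Duoxa1. None of 16 measured genes of NADPH oxidases and peroxidases passed, and their medians were 0.10, 0.41 and 0.28 on arrays 1, 2 and 3. Of them, 6 higher and 1 lower had an unadjusted p under 0.05, against 26.3% of all genes. Noxa1, an activator of Nox1, had 0.58 ± 0.10, Cybb, the phagocyte oxidase, 0.65 ± 0.37, its membrane partner Cyba 0.42 ± 0.21, and Nox4 -0.63 ± 0.34, with adjusted p-values of 0.0756, 0.0998, 0.131 and 0.0971 (limma).

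Proteins that withhold metals had means near 0 and both signs. Lcn2, lipocalin 2, binds the siderophores with which bacteria collect iron. It had 0.54, -0.44 and 0.36 on arrays 1, 2 and 3 (mean 0.15 ± 0.52), so array 2 lay on the other side of 0 from the others. S100a8 and S100a9 form calprotectin, which binds zinc and manganese and is abundant in neutrophils. S100a8 had 0.73, -0.52 and -0.12 and S100a9 had 0.70, -0.50 and -0.34. The pair was high on array 1 and below 0 on arrays 2 and 3, with S100a8 minus S100a9 between -0.01 and 0.22. Their means of 0.03 ± 0.63 and -0.05 ± 0.65 are small beside these spreads, which exceeded those of 94.5% and 95% of all genes.

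Neutrophil markers were measured beside them because calprotectin, Lcn2 and Pglyrp1 are also neutrophil products. Of the 21 listed, 20 were measured and none passed, with an unadjusted p under 0.05 for 4 higher and 2 lower genes, against 26.3% of all genes. Of the 20, 7 were above 0 on all 3 arrays and 7 were below 0 on all 3, and the medians were -0.06, -0.02 and 0.01 on arrays 1, 2 and 3. On array 1, where S100a8 and S100a9 were highest, 8 of the 20 markers were above 0, with values from -1.10 (Retnlg) to 3.52 (Ltf). The granule genes Mpo and Elane had 0.19 ± 0.12 and 0.21 ± 0.14, and the receptor genes Csf3r and Cxcr2 had -0.14 ± 0.17 and -0.15 ± 0.15, all chosen after their values were seen. Other markers lay further from 0 on both sides, among them Stfa2l1 with 0.62 ± 0.51 and Fpr1 with -0.58 ± 0.43. The surface protein gene Cd177 had 0.85 ± 0.34 and the collagenase gene Mmp9 0.63 ± 0.31. Their part in the values of S100a8, S100a9, Lcn2 and Pglyrp1 was not tested. Of 13 macrophage markers none passed or had an unadjusted p under 0.05, and their medians were -0.13, 0.29 and 0.07. The macrophage genes Csf1r, Itgam and Fcgr1 had 0.23 ± 0.23, 0.22 ± 0.13 and -0.46 ± 0.55.

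Among the other metal-binding genes, 1 of 20 passed as lower and none as higher. An unadjusted p under 0.05 was found for 6 higher and 5 lower genes, against 26.3% of all genes. The list was chosen with earlier results of these data known, so nothing is read from these counts. Hp, haptoglobin, which binds free haemoglobin, had -1.64, -2.09 and -1.36 (mean -1.70 ± 0.37, 3.24-fold lower, adjusted p = 0.0461, limma), where 0.222% of all genes passed as lower. It passed with no array left out, and had adjusted p-values of 0.0577 to 0.219 with 1 left out. Ltf, lactoferrin, an iron-binding protein of mucosal secretions and neutrophil granules, had 3.52, 2.50 and 0.34 (mean 2.12 ± 1.62, adjusted p = 0.106, limma). Its values were high on arrays 1 and 2 and low on array 3, an order that neither Lcn2 nor S100a8 had. Slc22a17, a receptor for Lcn2, had -0.54, -0.69 and -0.38 (mean -0.53 ± 0.16, adjusted p = 0.0862, limma). S100g, the calcium carrier calbindin of the enterocyte, had -1.45 ± 0.83 (adjusted p = 0.0815, limma). Of the fits with 1 array left out, it passed only without array 2, at a mean of -1.91 (adjusted p = 0.0468, limma). Its adjusted p was 0.276 without array 1 and 0.223 without array 3 (limma).

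Pigr is the polymeric immunoglobulin receptor, which takes dimeric IgA through the enterocyte and sheds it into the lumen. It had 0.55, 0.73 and 0.18 on arrays 1, 2 and 3, with a mean of 0.49 ± 0.28 (1.40-fold), and all arrays lay above 0. Feature 33390 had 0.56, 0.64 and 0.09 and feature 44085 had 0.53, 0.83 and 0.28. Jchain, which joins IgA monomers and lets Pigr bind them, had 0.42, 0.77 and -0.16, the same order of arrays as Pigr.

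For IgA production, of 25 listed genes 18 were measured, none passed, and the medians were 0.09, -0.04 and -0.24. Of them, 3 higher and 4 lower had an unadjusted p under 0.05, against 26.3% of all genes. Tnfrsf17, the survival receptor of plasma cells, had -0.63, -0.31 and -1.05 (mean -0.66 ± 0.37, adjusted p = 0.0971, limma). Among the other plasma cell markers, Mzb1 had -0.55 ± 0.33, Xbp1 -0.20 ± 0.14 and Igkc -0.19 ± 0.07, each below 0 on every array. Jchain went the other way, with a mean of 0.34 ± 0.47 and both signs, and Igha was not measured. The B cell receptor gene Cd79a had 0.78 ± 0.54 and Tgfb1, a signal for the switch to IgA, 0.94 ± 0.46, neither past the test. The part of plasma cell number in the ratio of Pigr was not tested.

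**Figure D3:**
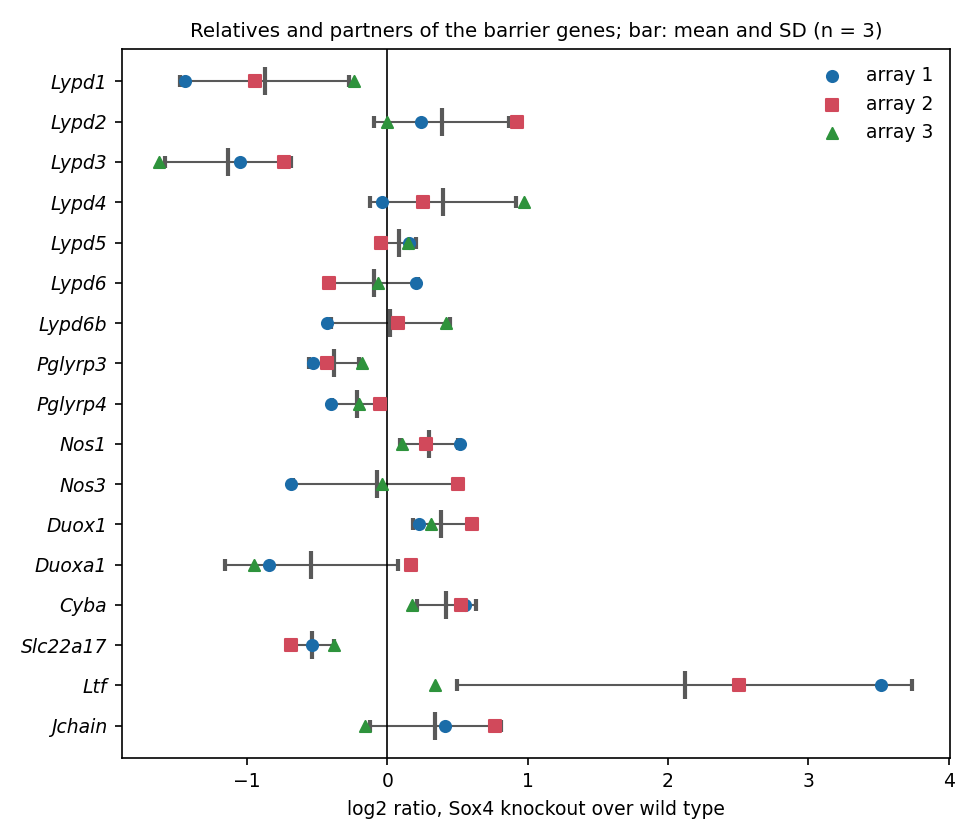
Log2 ratios of knockout over wild type (x axis) for relatives and partners of the barrier genes (rows), with a symbol for each array, a tick at the mean and a bar for the SD over 3 arrays. Duoxa1 is above 0 on array 2 alone, as Duoxa2 was, Pglyrp3, Pglyrp4, Lypd1, Lypd3 and Slc22a17 are below 0 on every array, and Ltf has the widest range, 3.17.

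Genes of the signals that are known to induce these proteins were listed as well. For IL-22 and IL-17 signalling, 22 of 23 genes were measured, none passed in either direction, and the medians were 0.22, -0.05 and 0.10 on arrays 1, 2 and 3. Il22 had 0.18 ± 0.30 and Il17a 0.13 ± 0.31, both chosen after their values were seen. Fut2, a fucosyltransferase of the epithelium that IL-22 induces, had 0.92, 1.61 and 0.47 (mean 1.0 ± 0.58, adjusted p = 0.0864, limma), Traf3ip2, the adaptor of the IL-17 receptor, 0.62 ± 0.14, and Il10rb, a chain of the IL-22 receptor, -0.47 ± 0.18.

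For interferon gamma, TNF, IL-1 and NF-kB, 21 of 22 genes were measured and none passed, with medians of -0.12, -0.17 and 0.13. Tnf had 0.74, 1.22 and 0.69 (mean 0.88 ± 0.30, adjusted p = 0.0663, limma), Il6 had -2.02, -0.70 and -1.49 (mean -1.40 ± 0.66, adjusted p = 0.0692, limma), and Ifngr1, a chain of the interferon gamma receptor, had -0.52 ± 0.11. Unadjusted p-values under 0.05 were found for 2 higher and 5 lower genes here and for 4 higher and 2 lower genes of IL-22 and IL-17 signalling, against 26.3% of all genes.

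**Figure D4:**
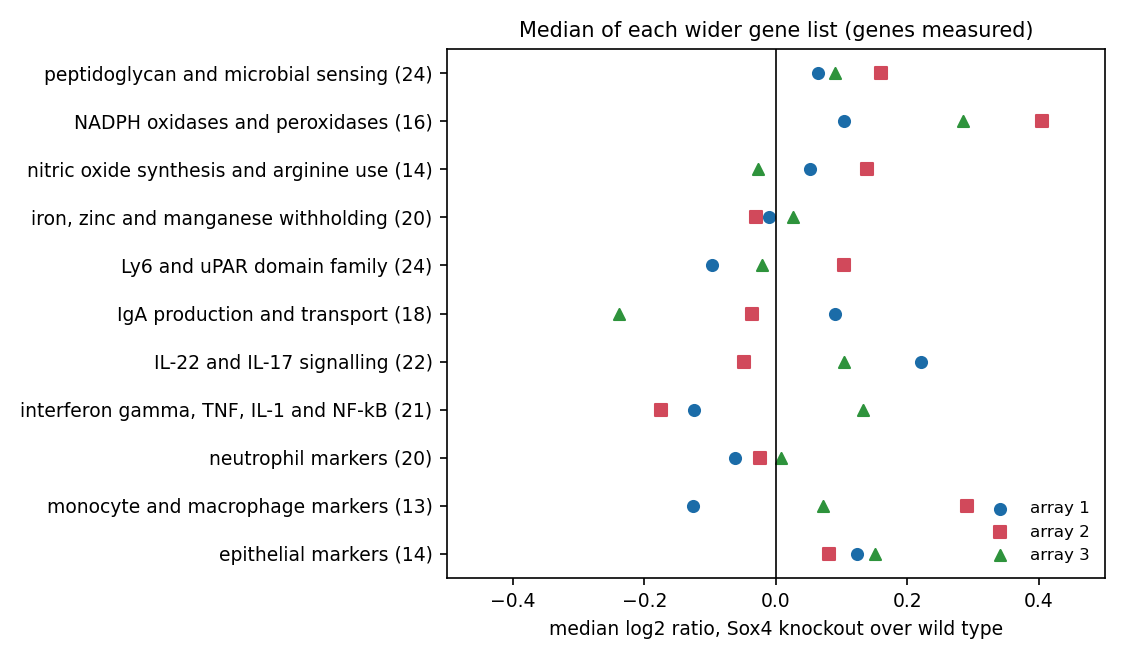
Median log2 ratio of knockout over wild type (x axis) of 11 wider gene lists (rows, with the number of genes measured), with a symbol for each array. Every median lies between -0.24 and 0.41, and 1 gene of all lists, Hp, passed the test. The lists were chosen with earlier results of these data known, so nothing is read from that count.

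Set among all genes by mean and spread, the members fell into separate places. Lypd8 and Pglyrp1 combined a mean above 1 with SDs near the middle of all genes, which 63.1% and 58.2% of genes were below. Nos2 had a like mean with a wide spread, Duox2 and Duoxa2 had spreads above those of 99.7% and 99.8% of genes, and Pigr and Pglyrp2 had means above those of 93.7% and 83.8% of genes with SDs near the middle of all genes. Lcn2, S100a8 and S100a9 had means between -0.05 and 0.15.

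**Figure D5:**
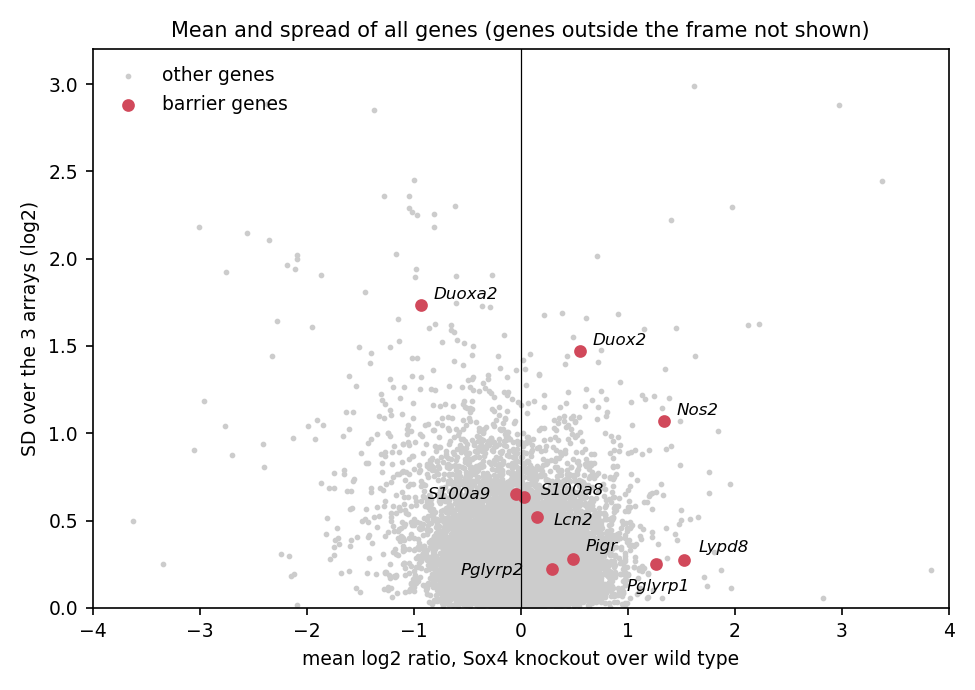
Mean log2 ratio of knockout over wild type (x axis) against the SD over 3 arrays (y axis) for the barrier genes, in red and named, and all other genes within the frame, in grey. Lypd8 and Pglyrp1 have means of 1.52 and 1.26 with SDs of 0.27 and 0.25, and Duox2, Duoxa2 and Nos2 have SDs above 1.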

How the data were processed

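Per the labels, total RNA of knockout jejunum (Cy5) and of wild-type jejunum (Cy3) shared each of 3 two-colour arrays. The authors deposited 1 value per feature, 62976 on each array, read here as the log2 ratio of Cy5 over Cy3. For the log base, the direction, the background correction and the normalization, the method is not stated in the labels or files. The array medians of 0.007, 0.003 and 0.011 show that the ratios were centred, and no further scaling was applied. If the table held Cy3 over Cy5, every sign would turn. Without intensities, dim features were kept, and the small number of arrays sets the precision.

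Gene names came from the platform annotation, updated by accession, symbol or synonym through a RefSeq gene table (GRCm38.p6). The 31465 features with a symbol gave 20738 genes, features of 1 gene being averaged on each array. The mean ratio was tested against 0, two-sided, with limma 3.58.1 in R 4.3.3 (intercept, eBayes) and Benjamini-Hochberg adjustment over all genes. Plots were drawn with matplotlib 3.10.9, and tables made with pandas 2.3.3 and numpy 2.4.6 in Python 3.11.15. The fit was tested on simulated data with 50 genes changed at each size. It called 0% of genes changed by 0.5 in log2, 38% by 1, 88% by 2 and 100% by 4, with 5 false calls. A gene that did not pass is therefore not shown to be unchanged. Whether variation among wild-type animals enters such a test is unknown, because the labels do not say if these animals were pooled. The p-values measure the spread between these arrays.

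The members and the 11 wider lists were chosen with earlier results of these data known. The genes named were all members, Sox4, Eif2s3y and Xist, their direct partners, and in each list the 3 genes with the smallest p and any past the threshold, and the plasma cell markers. Mpo, Elane, Csf3r, Cxcr2, Retnlg, Stfa2l1, Fpr1, Il22, Il17a, Epcam, Tjp1 and Cldn7 were named outside this rule after their values were seen. For Lypd8 and Nos2 the 3 genes with the smallest Euclidean distance over arrays were added. Listed genes without a feature named here were not analysed here. Protein sequences were not used here, and Nos2 has no window in the promoter table. The alternatives tried were another centring, a robust variance model, the median of features, each feature on its own, genes with more than 1 feature, the platform's own symbols, the natural logarithm and leaving out each array.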

Additional observations from a re-analysis of the deposited data

How the results depend on the processing

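All comparisons rest on 3 arrays of 1 dye orientation, and no intensity was available to bound dim features. Each ratio already pairs knockout with wild-type RNA on the same array. No pairing between arrays was possible because all arrays form 1 group. The count of 68 genes past the threshold was 71 to 91 with the arrays centred, a robust variance model, the median of features or each feature on its own, 68 with the platform's symbols and 226 when only the 6171 genes with more than 1 feature were tested. With 1 array left out it ran from 4 to 66: 10 without array 1, 66 without array 2 and 4 without array 3. The number of members past the threshold, 2, was 1 with each feature on its own (Lypd8), 1 with the platform's symbols (Pglyrp1, as Lypd8 stands there under its older name, adjusted p = 0.041), and 0 among genes with more than 1 feature, where neither is present. It was 0 with any 1 array left out (range 0 to 0), when the adjusted p of Lypd8 was 0.0569 to 0.207 and that of Pglyrp1 0.071 to 0.234. Read as natural logarithms, the means of Lypd8 and Pglyrp1 would be 2.20 and 1.82 on the log2 scale. The other 68 of 70 alternative values of member means stayed within 1 SD. Leaving out 1 of 3 arrays cannot move a mean by 1 SD, so nothing about stability is read from this count. The mean changed sign with 1 array left out for Duox2 (-0.28 to 1.08), Lcn2 (-0.04 to 0.45), S100a8 (-0.32 to 0.30) and S100a9 (-0.42 to 0.18). The count of metal-withholding genes past the threshold ran from 0 to 1, being 0 without array 1 and without array 3, and without array 2 the gene that passed was S100g in place of Hp. With 1 array left out, list medians ran from 0.10 to 0.20 for microbial sensing, -0.024 to 0.178 for nitric oxide synthesis, -0.015 to 0.056 for metal withholding, -0.134 to -0.022 for neutrophil markers and 0.023 to 0.144 for epithelial markers. They ran from -0.12 to 0.07 for IgA production, -0.09 to 0.13 for macrophage markers, -0.015 to 0.064 for the Ly6 and uPAR family, 0.02 to 0.15 for IL-22 and IL-17 signalling, -0.17 to -0.02 for interferon gamma, TNF, IL-1 and NF-kB, and 0.18 to 0.36 for NADPH oxidases. The mean of Duoxa2 ran from -1.90 to -0.22 and that of Nos2 from 0.735 to 1.74.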
